A study of Mus musculus with 4 samples.

Results

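Notch signalling was followed through 10 genes: the receptor genes Notch1, Notch2, Notch3 and Notch4, the ligand genes Jag1, Jag2 and Dll4, and the target genes Hey1, Hey2 and Heyl. They were taken by symbol from the annotation of a mouse expression array, and each of the 10 was read by 1 probe among the 22206 on the array, which carry 19505 different symbols. The hearts came from male mice whose left coronary artery was tied off at 8 weeks of age to cause a myocardial infarction (MI), and they were collected 3 months later. In the TTg-MI group (2 hearts) the genotype was Tcf21iCre/Tomato/MGTH2A, and in the Ctrl-MI group (2 hearts) it was Tcf21iCre/Tomato. Both groups thus carried a Cre recombinase driven from Tcf21, which encodes a factor of cardiac fibroblasts, and a Tomato reporter, and both had the infarction. MGTH2A stands in the field for 1 polycistronic construct, named after its cardiac factors (Mef2c, Gata4, Tbx5 and Hand2). Whether and when the Cre was switched on by an agent was not given in the sources used here. RNA came from whole hearts, which mix muscle, fibroblasts, vessels and blood cells, so that fewer cells of a type and less RNA per cell cannot be told apart. The design text describes the hearts as independent. Mice whose ejection fraction was above 45% on day 2 had been removed.

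Notch receptors sit in the cell membrane and bind ligands of the Jagged and Delta-like families on neighbouring cells. Binding leads to cuts by ADAM and gamma-secretase proteases, which free the receptor's intracellular domain to enter the nucleus and join the DNA-binding protein RBPJ, where it turns on genes such as those of the Hey and Hes repressors. In the heart the pathway is known for its part in the arteries, the valves, the endocardium and the walls of vessels, and for its activity in the heart muscle of the embryo.

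The arrays had medians of 6.55 to 6.62 log2 units and lower quartiles of 5.41 to 5.48. The ventricular myosin light chain gene Myl2 lay at 18.86 to 19.08 on all 4 arrays. The arrays did not fall apart by group alone: on the first principal component (58.4% of the variance) the TTg-MI arrays had scores of 16.5 and 31.9, against -47.1 for Ctrl-MI replicate 1 and -1.29 for Ctrl-MI replicate 2. Ctrl-MI replicate 2 also differed in atrial muscle genes, with Myl4 at 7.70 against 14.61 to 16.34 on the other arrays. Of the factor genes in the construct, Tbx5 was at 10.68 and 9.72 in TTg-MI hearts and 7.62 and 7.88 in Ctrl-MI hearts, and Mef2c at 16.01 and 13.97 in TTg-MI hearts and 12.67 and 13.02 in Ctrl-MI hearts. Gata4 and Hand2 overlapped between the groups. All values below are the deposited log2 units, each difference takes the mean of the TTg-MI hearts minus that of the Ctrl-MI hearts, and values with single arrays left out are given for the 10 genes, for the lists, and for other genes where a direction rests on them. Of 59 other genes picked by rule, not all of them named below, 42 had a difference that turned or moved by over 1.5 times as 1 array was left out.

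Of the 10 genes, 8 had a lower mean and 2 a higher mean in TTg-MI hearts, and none passed limma after Benjamini-Hochberg adjustment over all probes, where the adjusted p ran from 0.588 for Jag1 to 0.974 for Dll4. At an unadjusted limma p under 0.05 there was 1 gene, Jag1, a share near the 8.25% of all probes in either direction. After adjustment 0.0045% of all probes passed, which is the single gene Bmp10. The arrays of the groups did not overlap for 6 of the 10, with 5 lower and 1 higher in TTg-MI, where the same held for 38.1% of all probes, 18.7% lower and 19.4% higher. The median difference of the 10 was -0.20, beside 0.011 over all probes, and their sizes without regard to sign had a median of 0.22 beside 0.15. The differences were therefore small, from -0.65 for Heyl to 0.21 for Hey2, and only the interval of Jag1 left out 0.

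**Figure D1:**
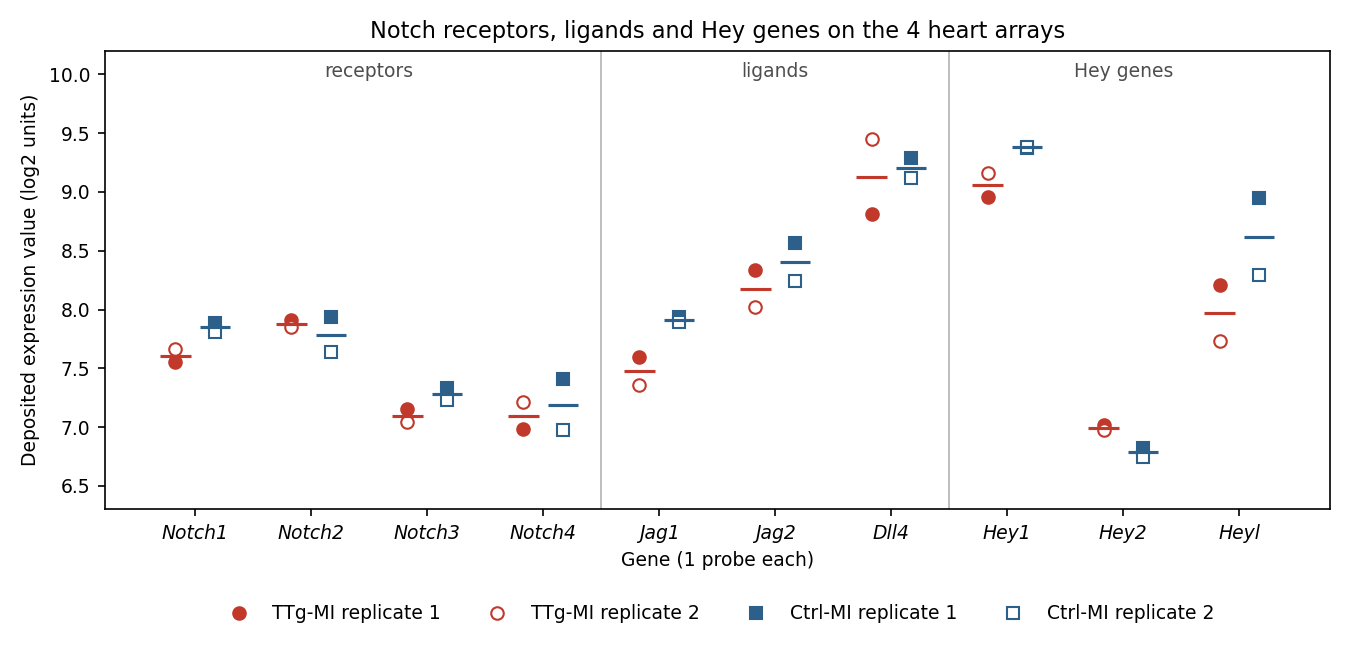
Expression values in log2 units (vertical axis) of the 10 genes (horizontal axis) on each array, with TTg-MI hearts as circles left of Ctrl-MI hearts as squares, replicate 1 filled and replicate 2 open, and a line at each group's mean. The circles sit wholly below the squares for Notch1, Notch3, Jag1, Hey1 and Heyl and wholly above them for Hey2. Heights of different genes come from different probes and are not comparable.

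Among the receptors, Notch1 and Notch3 separated the groups by a small step and Notch2 and Notch4 did not. Notch1, the receptor best known in the endothelium and endocardium, was at 7.56 and 7.66 in TTg-MI hearts and at 7.89 and 7.81 in Ctrl-MI hearts. Both TTg-MI values were the lower ones, and the hearts of a group differed by 0.11 in TTg-MI and 0.077 in Ctrl-MI. The difference was -0.24 (SE 0.15, 95% interval -0.62 to 0.14), with an unadjusted limma p of 0.169 and an adjusted p of 0.751. Notch3, the receptor of pericytes and vascular smooth muscle, had 7.15 and 7.04 in TTg-MI hearts and 7.33 and 7.23 in Ctrl-MI hearts. Here too the groups did not overlap, by a margin smaller than the spread within either group, and the difference of -0.18 (SE 0.15, interval -0.56 to 0.20) had an unadjusted limma p of 0.282.

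Notch2, a broadly expressed receptor, had 7.91 and 7.85 in TTg-MI hearts, inside the 7.94 and 7.64 of the Ctrl-MI hearts. Its difference was 0.094 (SE 0.17, interval -0.34 to 0.52), and it was -0.056 without Ctrl-MI replicate 2. Notch4, a receptor largely of endothelial cells, had 6.98 and 7.21 in TTg-MI hearts, also inside the 7.41 and 6.97 of the Ctrl-MI hearts. The difference was -0.095 (SE 0.21, interval -0.61 to 0.42). It was 0.12 when Ctrl-MI replicate 1 was left out and 0.020 when TTg-MI replicate 1 was, so that its direction rested on single arrays. In all, 3 receptors had a lower and 1 a higher TTg-MI mean.

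All 3 ligands had a lower TTg-MI mean, but the arrays separated only for Jag1. Jag1, a ligand of endothelial and smooth muscle cells that also acts between neighbouring mural cells, was at 7.60 and 7.36 in TTg-MI hearts and at 7.93 and 7.90 in Ctrl-MI hearts. The lower Ctrl-MI heart stood above the higher TTg-MI heart by more than the TTg-MI hearts differed from each other, which was 0.24. The difference was -0.43 (SE 0.16, interval -0.84 to -0.028), or 1.35-fold lower, with an unadjusted limma p of 0.0401 and an adjusted p of 0.588. With 1 array left out the difference ran from -0.55 to -0.32 and was negative each time. The unadjusted limma p was then 0.0980 and 0.0765 with the first or the second Ctrl-MI heart left out, and 0.0573 and 0.217 with the first or the second TTg-MI heart left out.

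Jag2, the other Jagged ligand, had 8.34 and 8.02 in TTg-MI hearts and 8.56 and 8.25 in Ctrl-MI hearts. The groups overlapped, as TTg-MI replicate 1 lay above Ctrl-MI replicate 2, and the difference was -0.23 (SE 0.20, interval -0.72 to 0.27). It ran from -0.39 to -0.066 as single arrays were left out. Dll4, the Delta-like ligand of arterial and sprouting endothelium, had 8.81 and 9.45 in TTg-MI hearts and 9.28 and 9.12 in Ctrl-MI hearts. The TTg-MI hearts held both the lowest and the highest of the 4 values, 0.64 apart, and the difference was -0.070 (SE 0.25, interval -0.69 to 0.55). With TTg-MI replicate 1 left out it was 0.25 and with Ctrl-MI replicate 1 left out 0.013, so no direction can be given for Dll4.

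The 3 Hey genes encode repressors of the basic helix-loop-helix family, and in all 3 the groups did not overlap, Hey1 and Heyl being lower and Hey2 higher in TTg-MI hearts. Hey1, expressed in arterial endothelium and, in the embryo, in atrial muscle, had 8.96 and 9.16 in TTg-MI hearts. The Ctrl-MI hearts had 9.37 and 9.38, closer to each other than for any other of the 10 genes. The difference was -0.32 (SE 0.16, interval -0.71 to 0.080), or 1.24-fold lower, with an unadjusted limma p of 0.0974 and an adjusted p of 0.671. It kept its sign as each array was left out, from -0.42 to -0.21.

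Heyl, a Hey gene of vascular smooth muscle that lies downstream of Notch3 there, had 8.21 and 7.73 in TTg-MI hearts and 8.94 and 8.29 in Ctrl-MI hearts. Its difference was the largest of the 10, but so was the spread between its Ctrl-MI hearts, which were 0.65 apart. The nearest values of the groups, TTg-MI replicate 1 and Ctrl-MI replicate 2, all but met. The difference was -0.65 (SE 0.28, interval -1.36 to 0.063), or 1.57-fold lower, with an unadjusted limma p of 0.0667 and an adjusted p of 0.622. It was -0.32 when Ctrl-MI replicate 1 was left out and -0.97 when Ctrl-MI replicate 2 was. Without Ctrl-MI replicate 2 the unadjusted limma p of Heyl was 0.0107, where 14.7% of all probes had a p under 0.05. With TTg-MI replicate 1 left out it was 0.0475, where 5.79% of all probes did.

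Hey2, known as the Hey gene of ventricular muscle and of arteries, was at 7.02 and 6.98 in TTg-MI hearts and at 6.83 and 6.75 in Ctrl-MI hearts. Both groups were tight, with 0.039 between the TTg-MI hearts and 0.078 between the Ctrl-MI hearts. The difference was 0.21 (SE 0.15, interval -0.16 to 0.58), with an unadjusted limma p of 0.211 and an adjusted p of 0.785, and ran from 0.17 to 0.25 as single arrays were left out. In an ordinary linear model, which does not share the variance across probes, Hey2 was the 1 gene of the 10 with an unadjusted p under 0.05, where 5.59% of all probes were.

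**Figure D2:**
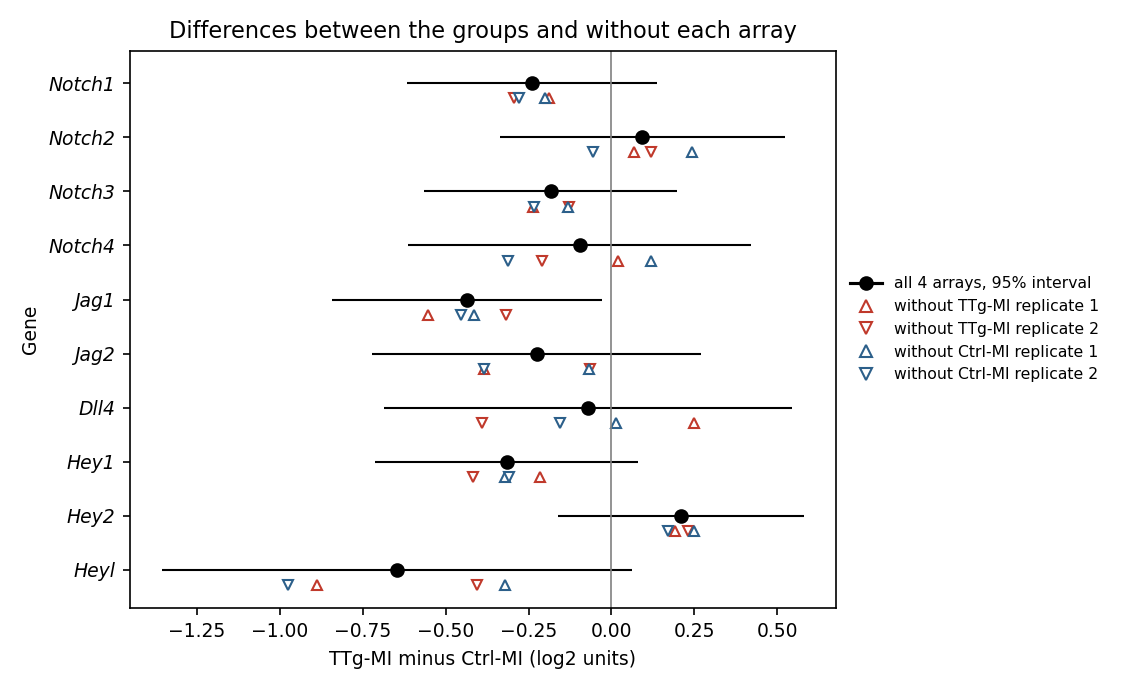
TTg-MI minus Ctrl-MI differences in log2 units (horizontal axis) for the 10 genes (vertical axis), as a point with its 95% interval from limma on all 4 arrays, and as open triangles with 1 array left out. Only the interval of Jag1, from -0.84 to -0.028, left out 0, and the triangles of Notch2, Notch4 and Dll4 lay on both sides of 0.

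Because the means of Hey1 and Hey2 differed in opposite directions, the gap between them was taken on each array, which removes any scaling of a whole array. This and 2 further pairs were chosen after the values were seen. Hey2 minus Hey1 was -1.94 and -2.19 in TTg-MI hearts and -2.55 and -2.64 in Ctrl-MI hearts, a difference of 0.53. Since Hey1 lay wholly below and Hey2 wholly above in TTg-MI hearts, this gap could not overlap, and it is given with no test. The exact two-sided permutation test of the other pairs cannot go below p = 0.333 with 2 arrays against 2. Hey1 minus Heyl was 0.75 and 1.43 in TTg-MI hearts and 0.43 and 1.09 in Ctrl-MI hearts, which overlapped (exact permutation p = 0.667). Jag1 minus Dll4 was -1.21 and -2.09 in TTg-MI hearts, on either side of the -1.35 and -1.22 in Ctrl-MI hearts (exact permutation p = 1).

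The upstream sequences of Hey2 and Jag1 are shown, Hey2 as the 1 gene of the 10 whose arrays separated upwards and Jag1 as the gene with the smallest p. RefSeq windows on build GRCm38.p6 from 250 bases before to 50 after the start site were at hand for 8 of the 10 genes, and Hey1 and Heyl were without one. TGGGAA, the core motif of RBPJ, was searched on both strands. It was found in 1 of the 8 windows, that of Hey2, which held it at 2 places, while 25.6% of the 32851 mouse promoter windows held it. In Hey2 one copy, on the opposite strand, covered bases -207 to -202 and the other bases -3 to 3, counted from the start site as base 1. The motif was not among the letters of the Notch1, Notch2, Notch3, Notch4, Jag1, Jag2 and Dll4 windows. CACGTG, an E-box that Hey proteins can bind and that reads the same on both strands, was in 0 of the 8 windows and in 7.15% of all. A match describes letters, and binding was not measured. The sequences read 5′ to 3′ on the strand of the gene, which is the minus strand for both, and capitals mark the RBPJ core motif. They are printed up to the start site, and for Hey2 to the end of the motif that spans it. Hey2 covers chr10:30842781-30843033 with 71.1% G and C, and Jag1 chr2:137116521-137116770 with 57.2%.
Hey2: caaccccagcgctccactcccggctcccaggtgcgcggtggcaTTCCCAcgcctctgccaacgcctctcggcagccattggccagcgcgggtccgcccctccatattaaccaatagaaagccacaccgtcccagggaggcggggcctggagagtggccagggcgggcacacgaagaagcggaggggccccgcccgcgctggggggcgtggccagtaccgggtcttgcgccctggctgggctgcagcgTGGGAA
Jag1: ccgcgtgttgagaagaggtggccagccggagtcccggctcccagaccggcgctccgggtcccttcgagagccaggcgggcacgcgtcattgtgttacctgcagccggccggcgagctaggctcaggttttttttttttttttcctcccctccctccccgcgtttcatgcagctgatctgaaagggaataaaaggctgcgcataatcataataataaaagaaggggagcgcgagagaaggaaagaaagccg

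The 10 genes did not share out their extremes evenly over the arrays. Ctrl-MI replicate 1 held the highest value for 7 of the 10 and the lowest for 0, while over all probes it held the highest for 29.6% and the lowest for 28.4%. TTg-MI replicate 2 held the lowest value for 4 and the highest for 1, beside 24.1% and 26.1% of all probes. Ctrl-MI replicate 2 and TTg-MI replicate 1 each held the lowest value for 3, beside 25.3% and 22.3% of all probes. The heart that stood apart on the first principal component was thus also the one in which most Notch genes read highest. Without it the median difference of the 10 was -0.100 and 6 of them were lower. Without Ctrl-MI replicate 2 the median was -0.29 and 9 were lower. Notch1, Notch3, Jag1, Jag2, Hey1, Hey2 and Heyl had the same sign in all 4 fits that left out 1 array.

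Without regard to sign, differences in the rest of the pathway had a median of 0.19, beside 0.22 for the 10 genes. Their range was wider, from -2.59 for Cdkn1a to 1.20 for Fbxw7. Of 49 other measured Notch pathway genes, 33 had a lower and 16 a higher mean in TTg-MI hearts, with a median difference of -0.11 (0.0013 without Ctrl-MI replicate 1). None passed limma over all probes. At an unadjusted limma p under 0.05 there were 5 lower (Cdkn1a, Dtx3, Mib1, Mfng and Psenen) and 0 higher, where 5.07% of all probes were lower and 3.18% higher. Such genes numbered 8 (16.3%) with Ctrl-MI replicate 2 left out, where 14.7% of all probes had such a p. With TTg-MI replicate 1 left out there were 2 (4.08%), beside 5.79% of all probes. For 15 of the 49 (30.6%) the groups' arrays did not overlap, 12 lower and 3 higher, a smaller share than the 38.1% of all probes.

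Of the genes that prepare ligand and receptor, Mib1, an E3 ubiquitin ligase that ligands need for signalling, had 10.04 and 10.30 in TTg-MI hearts and 10.89 and 10.65 in Ctrl-MI hearts. Its arrays did not overlap, and the difference was -0.60 (SE 0.18, adjusted p in limma = 0.546). Mib1 stood in a list of 4 ligand ubiquitin ligases, which all had a lower TTg-MI mean, though without Ctrl-MI replicate 1 only Mib1 did and the list median was 0.041. Mfng, a Fringe glycosyltransferase that sets which ligands a receptor answers to, had 6.88 and 6.95 in TTg-MI hearts and 7.29 and 7.49 in Ctrl-MI hearts, a difference of -0.47 (SE 0.16, adjusted p = 0.572). The related Lfng overlapped between the groups at -0.49 (SE 0.30), and all 5 receptor glycosyltransferases had a lower TTg-MI mean. Without Ctrl-MI replicate 1, 2 of these 5 were lower, and the list median was 0.027. Of the other ligands, Dll1 had 5.72 and 5.94 in TTg-MI hearts and 5.93 and 5.91 in Ctrl-MI hearts, a difference of -0.092 that was 0.019 without TTg-MI replicate 1. Dlk2 differed by 0.22 (SE 0.24), and by -0.069 without Ctrl-MI replicate 2. Dll3 lay under the lower quartile of both TTg-MI arrays and Dner under that of all 4 arrays, so that these were not shown to be above background.

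The protease genes were mixed, with 4 of 8 lower and 4 higher. Psenen, a subunit of gamma-secretase, was at 13.68 and 13.96 in TTg-MI hearts and at 14.35 and 14.23 in Ctrl-MI hearts, a difference of -0.47 (SE 0.17, adjusted p = 0.588). The catalytic subunit gene Psen2 differed by 0.28 (SE 0.21) and Aph1c, another subunit gene, by 0.23 (SE 0.18). In the nuclear complex Rbpj had 10.56 and 10.74 in TTg-MI hearts and 10.95 and 10.61 in Ctrl-MI hearts. These overlapped, and the difference was -0.13 (SE 0.19, interval -0.60 to 0.34), or 0.039 without Ctrl-MI replicate 1. The coactivators Maml2 and Maml3 differed by -0.30 (SE 0.16) and -0.24 (SE 0.17), and the corepressor genes Ctbp2 and Ctbp1 by -0.26 (SE 0.16) and 0.29 (SE 0.20).

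Among regulators, Dtx3, of the Deltex ubiquitin ligase family, had 8.89 and 9.10 in TTg-MI hearts and 9.80 and 9.48 in Ctrl-MI hearts, a difference of -0.65 (SE 0.19, adjusted p = 0.546). Fbxw7, a ubiquitin ligase subunit that marks the Notch intracellular domain for breakdown, had 10.18 and 9.80 in TTg-MI hearts and 8.01 and 9.57 in Ctrl-MI hearts. Its Ctrl-MI hearts were 1.56 apart, and the difference of 1.20 (SE 0.50, adjusted p = 0.613) was 0.43 without Ctrl-MI replicate 1. Numb, an inhibitor of Notch, differed by -0.20 (SE 0.17).

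The 6 other targets ranged from -2.59 to 0.17, wider than the Hey genes at -0.65 to 0.21, through Cdkn1a and Myc. The median size of the 6, without regard to sign, was 0.26. Hes5 (0.17, SE 0.18), Nrarp (-0.11, SE 0.18) and Efnb2 (-0.15, SE 0.25) overlapped between the groups. Their directions rested on single arrays. With Ctrl-MI replicate 2 out, Hes5 stood at -0.0083 and Efnb2 at 0.060. Nrarp was 0.052 and Efnb2 0.10 once TTg-MI replicate 2 was dropped. Hes1, the best known Notch target outside the Hey family, was at 7.78 and 7.48 in TTg-MI hearts and at 8.18 and 7.77 in Ctrl-MI hearts, which overlapped at the edge, and differed by -0.35 (SE 0.21, interval -0.87 to 0.18). Cdkn1a, a cell cycle inhibitor that many other signals also regulate, had 11.00 and 9.26 in TTg-MI hearts and 12.81 and 12.64 in Ctrl-MI hearts. The difference was -2.59 (SE 0.54, adjusted p = 0.546), and -1.72 without TTg-MI replicate 2. Myc, likewise a target of many pathways, had 6.88 and 6.89 in TTg-MI hearts and 9.47 and 7.40 in Ctrl-MI hearts, so that its difference of -1.55 (SE 0.64) was -0.52 without Ctrl-MI replicate 1.

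**Figure D3:**
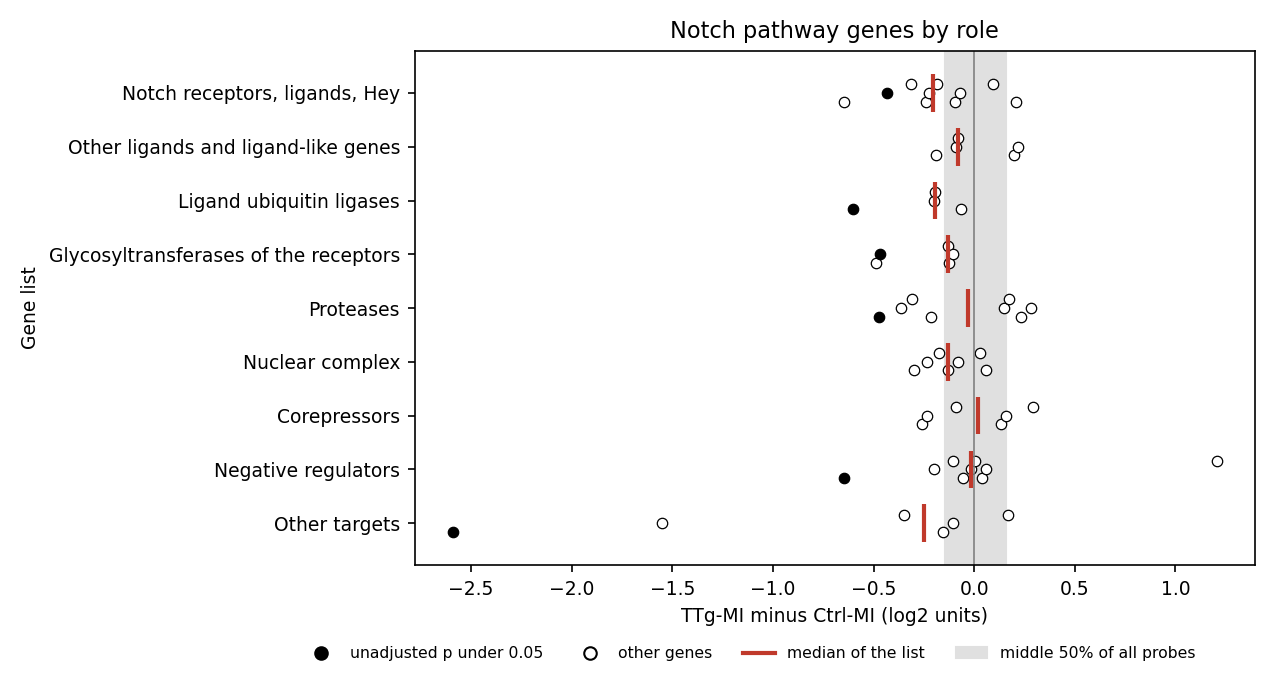
TTg-MI minus Ctrl-MI differences in log2 units (horizontal axis) of the 10 genes and of the other Notch pathway genes by role (vertical axis). Each point is a gene, filled where the unadjusted limma p was under 0.05, the red line is the median of a list and the grey band the middle 50% of all probes, from -0.14 to 0.16. Cdkn1a, Myc and Fbxw7 lay farthest from 0.

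Notch genes are known mainly from vascular and endocardial cells, so marker lists of the cell types of the heart were set beside them. Of 13 endothelial markers 9 were lower and 4 higher, with a median difference of -0.14 that ran from -0.37 to -0.039 as single arrays were left out, nearest to 0 with Ctrl-MI replicate 1 left out and farthest with TTg-MI replicate 1 left out. Their summed level, the sum of the values turned back from log2, was 121894 to 149650 in TTg-MI hearts and 135157 to 162469 in Ctrl-MI hearts, which overlapped. Pecam1, a junction protein of endothelium, differed by -0.56 (SE 0.19, adjusted p = 0.572) and Erg by -0.47 (SE 0.19), while the receptor gene Tie1 had the higher TTg-MI mean, by 0.69 (SE 0.24, adjusted p = 0.578). Of 8 arterial markers 7 were lower, with a median of -0.20, which was -0.089 with TTg-MI replicate 2 left out and -0.39 with TTg-MI replicate 1 left out. They had summed levels of 2409 to 3174 in TTg-MI hearts and 3302 to 3410 in Ctrl-MI hearts, which did not overlap. Efnb2, which also stood among the other Notch targets, made up 54.0% to 58.6% of the sum in TTg-MI hearts. In Ctrl-MI hearts it made up 45.2% to 58.9%, and its own values overlapped between the groups. Sema3g (-0.46, SE 0.15), Unc5b (-0.86, SE 0.29) and the connexin Gja4 (-0.39, SE 0.15) had the smallest p of the list, with adjusted p in limma of 0.572 to 0.600. The means of these 3 markers were lower together with those of Jag1, Hey1 and Heyl, and their part in those differences was not tested.

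The walls of vessels gave no single direction. Of 7 pericyte markers 4 were lower and 3 higher, with a median of -0.15 that ran from -0.24 without Ctrl-MI replicate 1 to -0.022 without Ctrl-MI replicate 2. Summed levels were 58969 to 64682 in TTg-MI hearts and 27517 to 53442 in Ctrl-MI hearts, of which Abcc9 alone made up 61.1% to 73.9% in TTg-MI hearts and 38.8% to 57.7% in Ctrl-MI hearts. Mcam differed by -0.68 (SE 0.27), and the potassium channel genes Abcc9 and Kcnj8 by 1.19 (SE 0.50; 0.43 without Ctrl-MI replicate 1) and 0.31 (SE 0.16). Of 8 smooth muscle markers 6 were higher, with a median of 0.097 that was 0.0060 with Ctrl-MI replicate 2 left out and -0.0008 with TTg-MI replicate 2 left out. Summed levels were 29387 to 31398 in TTg-MI hearts and 12371 to 18057 in Ctrl-MI hearts, of which Acta2 made up 86.8% to 88.5% in TTg-MI hearts and 70.9% to 78.5% in Ctrl-MI hearts. Acta2, smooth muscle actin, differed by 1.26 (SE 0.26, adjusted p = 0.546), Tagln by -0.79 (SE 0.51) and Itga8 by 0.28 (SE 0.19). Such sums add different probes, and these rested largely on a single gene each. Notch3 and Heyl, the genes of these cells, had a lower TTg-MI mean, and the part of these cells in that was not tested. Myh11, the myosin of smooth muscle, was at 7.84 and 8.04 in TTg-MI hearts and 8.08 and 8.09 in Ctrl-MI hearts.

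Of 5 endocardial markers 4 were lower, with a median of -0.26. The median was 0.16 with Ctrl-MI replicate 1 left out, 0.050 with TTg-MI replicate 2 left out and -0.67 with Ctrl-MI replicate 2 left out, so that its direction rested on single arrays. The list had summed levels of 2928 to 6184 in TTg-MI hearts and 2885 to 11969 in Ctrl-MI hearts, and overlapping arrays for each. Plvap differed by -0.78 (SE 0.52), Cytl1 by -0.56 (SE 0.87) and Nfatc1 by -0.26 (SE 0.31). Without Ctrl-MI replicate 1 these were -0.037, 0.67 and 0.16, and Cytl1 was 0.16 without TTg-MI replicate 2. Of 4 lymphatic markers 3 were lower, with a median of -0.45 (-0.10 without Ctrl-MI replicate 1) and sums of 5371 to 6262 in TTg-MI hearts and 4694 to 4756 in Ctrl-MI hearts. Flt4 differed by -0.48 (SE 0.15), Pdpn by -0.87 (SE 0.48) and Prox1, also a gene of heart muscle, by 1.33 (SE 0.49). Prox1 alone made up 63.5% to 64.3% of the lymphatic sum in TTg-MI hearts and 18.2% to 53.5% in Ctrl-MI hearts.

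Other cell types of the heart were set beside them in the same way. All 8 fibroblast markers were lower without overlap, where 18.7% of all probes were. Their median was -1.33, which was -0.65 with TTg-MI replicate 2 left out and -0.84 with Ctrl-MI replicate 1 left out, and the 8 were lower as each array was left out. They had summed levels of 249948 to 379542 in TTg-MI hearts and 417881 to 657545 in Ctrl-MI hearts. Dcn alone made up 95.1% to 96.7% of the sum in TTg-MI hearts and 94.2% to 94.4% in Ctrl-MI hearts. The difference of Dcn was -0.74 (SE 0.30). Tcf21 (-1.37, SE 0.25), Dpt (-0.96, SE 0.31) and Postn (-2.83, SE 0.99) had the smallest p of the list. All 6 macrophage markers had a lower TTg-MI mean, 5 of them without overlap, beside the same 18.7% of all probes. Fcgr1 overlapped at -0.36 (SE 0.32) and was 0.10 without Ctrl-MI replicate 1. The median of the 6 markers was -1.25 (-0.59 with Ctrl-MI replicate 1 left out and -1.88 with Ctrl-MI replicate 2 left out). Their sums were 3938 to 8570 in TTg-MI hearts and 12785 to 31714 in Ctrl-MI hearts. Lyz2 made up 64.6% to 77.0% of the sum in TTg-MI hearts and 79.9% to 80.3% in Ctrl-MI hearts. Mrc1 (-1.57, SE 0.41), Lyz2 (-1.98, SE 0.59) and Adgre1 (-1.09, SE 0.36) had the smallest p of the list. All 5 lymphocyte markers were lower, 4 of them without overlap, beside the same 18.7% of all probes. Their median was -0.33 and ran from -0.42 to -0.23 as single arrays were left out. Their sums were 242 to 246 in TTg-MI hearts and 592 to 633 in Ctrl-MI hearts. Jchain, which differed by -2.63 (SE 0.18), made up 23.9% to 28.4% of the sum in TTg-MI hearts and 61.5% to 66.6% in Ctrl-MI hearts. Cd3g (-0.33) and Ms4a1 (-0.32) lay under the lower quartile of both TTg-MI arrays. Ventricular markers had 3 of 6 lower and 3 higher, with a median of 0.046 that ran from -0.11 without TTg-MI replicate 1 to 0.22 without Ctrl-MI replicate 2, and sums of 1084007 to 1268501 in TTg-MI hearts and 1384692 to 1525553 in Ctrl-MI hearts. Myl2, the largest part of that sum, made up 43.4% to 51.0% of it in TTg-MI hearts and 34.3% to 36.3% in Ctrl-MI hearts. In that list only Myh7 did not overlap, at 17.75 and 17.12 in TTg-MI hearts and 18.93 and 18.87 in Ctrl-MI hearts. Its difference was -1.46 (SE 0.24), and the lower sums need not hold for the other ventricular genes. Irx4 differed by 0.49 (SE 0.32) and Gja1 by 0.23 (SE 0.32). Without Ctrl-MI replicate 1 these were 0.011 for Irx4 and -0.023 for Gja1, and Gja1 was -0.18 without TTg-MI replicate 1. Of 7 atrial markers 5 were higher, with a median of 2.75 that was 5.84 with Ctrl-MI replicate 1 left out and -0.21 with Ctrl-MI replicate 2 left out. Their sums were 518389 to 1105806 in TTg-MI hearts and 984315 to 1080373 in Ctrl-MI hearts. Nppa alone made up 89.0% to 91.3% of the sum in TTg-MI hearts and 92.0% to 99.6% in Ctrl-MI hearts, so the sum says little of the other atrial genes. Bmp10 (6.75, SE 0.22), Kcnj3 (1.64, SE 0.37) and Myl7 (3.93, SE 1.49) had the smallest p of that list, and Bmp10 lay under the lower quartile of both Ctrl-MI arrays, so that its difference is a lower limit. Hey1 and Hey2, the Hey genes of atrial and ventricular muscle, differed by -0.31 and 0.17 without Ctrl-MI replicate 2, the heart with little Myl4.

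**Figure D4:**
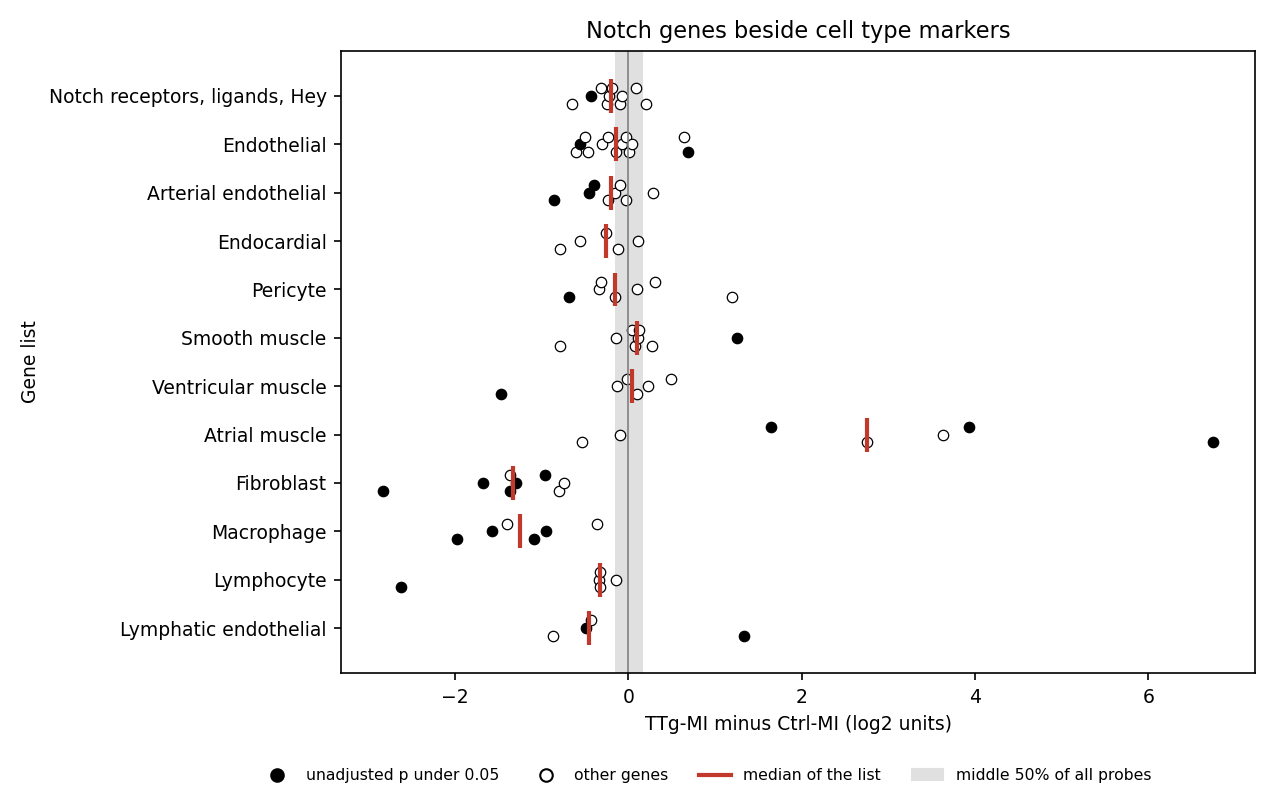
TTg-MI minus Ctrl-MI differences in log2 units (horizontal axis) of the 10 Notch genes and of the marker genes of 11 cell types (vertical axis). Points, red lines and the grey band have the same meaning as in the plot of pathway genes by role. The Notch genes had a median of -0.20. Medians were -0.14 for endothelial, -0.20 for arterial, -0.15 for pericyte, -0.26 for endocardial, -0.45 for lymphatic and 0.097 for smooth muscle markers. The endocardial median was 0.16 without Ctrl-MI replicate 1. Fibroblast and macrophage markers had medians of -1.33 and -1.25, lymphocyte markers -0.33, ventricular markers 0.046 and atrial markers 2.75.

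The probes most like Jag1 and Heyl across the 4 arrays were sought among 10074 named probes at or above the median level, by the root mean square distance between profiles centred on their own means. For Jag1 these were Rnf125, a ubiquitin ligase, at a distance of 0.0090 log2 units, Elob, an elongin subunit, at 0.0099 and Gpr108 at 0.013. Rnf125 had 7.53 and 7.32 in TTg-MI hearts and 7.88 and 7.83 in Ctrl-MI hearts, nearly the steps of Jag1. For Heyl they were Tgfb1, a growth factor that drives scar formation, at 0.023, Tmem106a at 0.023 and Reck, an inhibitor of matrix proteases, at 0.025. Tgfb1 had 9.63 and 9.17 in TTg-MI hearts and 10.32 and 9.71 in Ctrl-MI hearts. A likeness over 4 arrays rests on few points and says nothing of shared control.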

How the data were processed

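Whole-heart RNA of 4 mice was read on Clariom S Mouse arrays. What the authors deposited was read as log2 values because of its range, since no log base was given in the sources used here. Per the submitters' processing notes, the authors used Affymetrix Expression Console 1.4; for normalization, summarization and genome build, nothing was given in these sources. Values were used as deposited. Arrays have no read depth, and their number limits the precision.

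A model was fitted to all 22206 probes (limma 3.58.1, R 4.3.3; lmFit and eBayes, two-sided, no block), and p-values were adjusted over them by Benjamini-Hochberg at a threshold of 0.05. Intervals are 95% intervals on 5.56 degrees of freedom. Probes were named from the platform annotation. The fit was tested on simulated data. The 10 genes and all lists were chosen with earlier results of these data known, and lists are described without a set test. Picked by rule were all 10 genes, Rbpj, Hes1 and Dll1, and up to 3 genes with the smallest p in each list of 8 Notch roles and 11 cell types. Some of those picked from the lists are not named in the text. Myl2, Myl4, Myh11, Dcn, Nppa, Hes5, Nrarp, Efnb2, Cxcr4, Fcgr1 and the factor genes are named besides. Alternatives were 2 scalings, 2 variance models, a filter on dim probes, the replicate number as a block, a relaxed threshold of 0.1 and leaving out each array, where the lone array of a group is assumed to vary like the other group's. Each gene had 1 probe, so averaging probes changed nothing.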

Additional observations from a re-analysis of the deposited data

How the results depend on the processing

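With 2 hearts a group, only differences well beyond the spread between hearts can pass. Under quantile normalization and median centring the 10 genes kept their signs, and the median of all probes stayed within 0.025. The number of the 10 with an unadjusted p under 0.05, 1 in limma, was 0 under quantile normalization, 0 with an intensity trend and robust prior and 0 with the filter on dim probes, where 8.46%, 8.01% and 8.95% of all probes had such a p. As single arrays were left out it ran from 0 to 1, beside 3.88% to 14.7% of all probes. The groups did not overlap for 6 under quantile normalization and under median centring, beside 39.3% and 38.3% of all probes. Differences that changed sign as single arrays were left out were those of Notch4 (-0.31 to 0.12, with 0.020 when TTg-MI replicate 1 was out), Dll4 (-0.39 to 0.25, with 0.013 when Ctrl-MI replicate 1 was out) and Notch2 (-0.056 to 0.24, the lowest without Ctrl-MI replicate 2). The cause was not tested. The probes passing over all probes, 1 in limma, numbered 4 with an intensity trend and robust prior, 1 at the relaxed threshold and 1 to 332 without single arrays, the most without Ctrl-MI replicate 2. In the ordinary linear model they numbered 0, with 1241 probes at an unadjusted p under 0.05. The other pathway genes with an unadjusted p under 0.05, 5 in limma, numbered 1 in the ordinary linear model (5.59% of all probes) and 2 to 8 without single arrays (3.88% to 14.7% of all probes). With the replicate number as a block, 7 probes passed over all probes, and 2 of the 10 genes, Jag1 and Heyl, had an unadjusted p under 0.05 (11.1% of all probes). No label says that the numbers pair the hearts, and deviations of same-numbered hearts correlated at 0.16 across probes.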
